A study of Arabidopsis with 12 samples.

Results

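The nuclear photosystem and antenna genes described here are the genes of *Arabidopsis thaliana* outside the chloroplast and mitochondrial genomes whose description in the deposited table contains the words photosystem, light harvesting complex, light-harvesting chlorophyll or chlorophyll A/B, in upper or lower case. The rule found 60 of 33559 genes. They were sorted by role into 20 antenna genes, 28 photosystem subunit genes, called core genes below, and 12 others. These others are 2 assembly factors and 10 genes whose descriptions place them in the PsbP family. Core genes were taken by symbol or description, so they include *PSB27*, *PSB28*, *PSB29* and *PSI-P*, whose products act beside the finished complexes. The rule reads the description and no measured value. The rule depends on the wording of a description, so some genes of the same machinery, such as *PSBO1*, *PSBS* and *LHCB7*, are not among the 60.

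The RNA came from whole 14-day-old seedlings in 4 groups of 3 libraries. They are *aph-1* treated with abscisic acid (ABA), the wild type (WT, Col-0) treated with ABA, *aph-1* without ABA, and the wild type without ABA, the untreated groups being called control. ABA was given at 50 μM for 6 h, and all groups were grown on Murashige and Skoog medium with sucrose. *aph-1* is a single line (Salk_120974) with a T-DNA in the promoter of *APH* (AT3G44620), which encodes a low molecular weight protein tyrosine phosphatase, and by the study's account the T-DNA and *APH* form a fused transcript. The table lists *APH* at 86.9 FPKM in *aph-1* with ABA, 99.0 FPKM in WT with ABA, 83.6 FPKM in *aph-1* control and 95.9 FPKM in WT control. A value for the whole gene cannot separate *APH* reads from reads of a fused transcript, so it does not check the genotype. FPKM are sequenced fragments per kilobase of transcript, scaled to the size of the library, so levels of different genes can be set side by side.

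Photosystems I and II are chlorophyll-protein complexes of the thylakoid membrane that turn light into electron transport. Their reaction centres are largely encoded in the chloroplast genome, while the peripheral subunits and all antenna proteins are encoded in the nucleus and imported. The antenna proteins bind chlorophyll a and b and pass light energy to the reaction centres. LHCB1 to LHCB3 form the LHCII trimers, LHCB4 to LHCB6 are the minor antenna that link LHCII to photosystem II, and LHCA proteins form LHCI at photosystem I. ABA is a hormone of drought and seed responses, and the messenger RNAs of photosynthesis are known to fall under it in many plants.

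The table holds 1 value per gene and group, and no value per library. No SD, standard error or test could therefore be given for any difference below, and the depth is unknown. Each comparison is given as a ratio of 2 group values, on the log2 scale with no pseudocount, for genes that reach 1 FPKM in either group, and a gene is called lower or higher when the values differ at least 2-fold. These calls describe the group values and do not say whether a difference exceeds the spread between libraries. Summed over all genes the values were 1113654 in *aph-1* with ABA, 1119237 in WT with ABA, 1027611 in *aph-1* control and 1093168 in WT control. The shoot gene *RBCS1A* was at 6025, 3952, 12404 and 9613 FPKM in the same order, the root endodermis gene *CASP1* was between 20.0 and 29.5 FPKM, and the pollen and seed markers were at or below 0.21 FPKM. Fewer photosynthetic cells and less RNA per cell cannot be told apart in whole seedlings.

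ABA was accompanied by lower levels of most of the nuclear photosystem and antenna genes in both genotypes. In *aph-1*, 55 of the 59 genes that passed the filter were lower with ABA at any size, and in WT 57 of 59 were. Among all genes tested, 51.3% were lower at any size in *aph-1* and 50.2% in WT. At the 2-fold threshold 9 were lower and 1 was higher in *aph-1*, where 11.1% of 20054 genes tested were lower and 12.2% higher. In WT 28 were lower and 1 was higher, against 13.4% lower and 11.9% higher among 20094 genes. Over the members, the log2 ratio of ABA to control had a median of −0.76 in *aph-1* and −0.94 in WT, while over all genes it was −0.02 and −0.00. In *aph-1* the share of members past 2-fold was thus near that of all genes, and the members stood apart from all genes in their median. They also stood apart at 1.5-fold, where 37 of 59 members and 4348 of 20054 genes were lower in *aph-1*. All 9 members lower in *aph-1* at 2-fold were also lower in WT. This overlap was not counted over all genes, so it is not shown to be particular to the members. The 2-fold count of members in *aph-1* depends on the scale. It became 19 when the groups were rescaled to equal nuclear totals, which shifts all ratios of that comparison by −0.12. The count in WT became 29. All genes were not counted after rescaling, so neither count can be set against the shares above.

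The remaining member, AT4G37230, a gene of the PsbO family, is listed at 0.099 FPKM in WT control and at 0 in the other groups. It passed no filter and is in none of the counts.

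As a share of all summed FPKM the 60 genes made up 4.42% in *aph-1* with ABA, 3.91% in WT with ABA, 7.03% in *aph-1* control and 6.88% in WT control. Among the 100 most abundant genes, 13 and 14 were members in the ABA-treated *aph-1* and WT groups, against 28 and 27 in the *aph-1* and WT control groups. Beside genes of like abundance, the medians of the members were lower in both genotypes from 10 FPKM upward. The share past 2-fold was larger in WT, and in *aph-1* it differed between ranges of abundance. Of the 46 members with a mean of at least 100 FPKM over the groups, 5 (10.9%) were lower in *aph-1* and 21 (45.7%) in WT, with medians of −0.69 and −0.89. Of 1971 other nuclear genes at that level, 174 (8.83%) were lower in *aph-1* and 269 (13.6%) in WT, with medians of −0.05 and −0.20. In *aph-1* the 2 shares were close over this whole range but not within it. From 100 to 1000 FPKM 5 of 26 members (19.2%) were lower in *aph-1*, against 164 of 1888 other nuclear genes (8.69%). Above 1000 FPKM 0 of 20 members were lower there, against 10 of 83 other nuclear genes. From 10 to 100 FPKM 4 of 12 members (33.3%) were lower in *aph-1*, against 694 of 10019 other nuclear genes (6.93%). *RBCS1A* and *RCA*, 2 shoot genes that are no members, had log2 ratios of −1.04 and −2.31 in *aph-1* and −1.28 and −2.20 in WT. What part a change in shoot tissue has in these ratios was not tested.

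Photosystem II has the largest antenna, and *LHCB1* is its most abundant gene family. Its 5 copies lie in 2 clusters, *LHCB1.1* (AT1G29920), *LHCB1.2* (AT1G29910) and *LHCB1.3* (AT1G29930) on chromosome 1 and *LHCB1.4* (AT2G34430) and *LHCB1.5* (AT2G34420) on chromosome 2. *LHCB1.3* alone was at 8587 FPKM in *aph-1* with ABA, 6364 in WT with ABA, 10585 in *aph-1* control and 8438 in WT control. It was the highest of the antenna genes in each group and its log2 ratio of ABA to control was small, −0.30 in *aph-1* and −0.41 in WT. *LHCB1.2* was at 744 FPKM in *aph-1* with ABA, 481 in WT with ABA, 1284 in *aph-1* control and 1013 in WT control. *LHCB1.1* was at 311, 175, 396 and 308 FPKM in the same 4 groups. The copies on chromosome 1 are near-identical in sequence, so reads may have been split between them and the value of a single copy is uncertain.

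*LHCB1.4* ran against the rest of the antenna. It was at 948 FPKM in *aph-1* with ABA and 1109 in WT with ABA, against 515 in *aph-1* control and 621 in WT control, or 1.84-fold higher with ABA in *aph-1* and 1.79-fold higher in WT. It was the only antenna gene with a positive log2 ratio in both genotypes, 0.88 in *aph-1* and 0.84 in WT, below the 2-fold threshold. Its neighbour *LHCB1.5* was at 2083, 1852, 2430 and 1970 FPKM in *aph-1* with ABA, WT with ABA, *aph-1* control and WT control, a log2 ratio of −0.22 in *aph-1* and −0.09 in WT. *LHCB1.4* made up 7.48% of the family's summed FPKM in *aph-1* with ABA and 11.1% in WT with ABA, against 3.38% in *aph-1* control and 5.03% in WT control. Summed over the 5 copies, *LHCB1* was 1.2-fold lower with ABA in *aph-1* and 1.24-fold lower in WT.

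**Figure D1:**
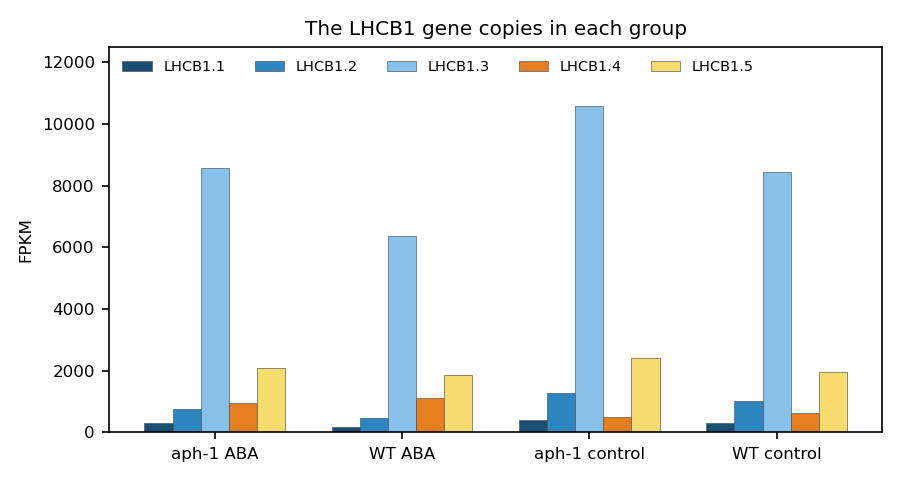
FPKM of the 5 *LHCB1* copies (bars, colours by copy) in the 4 groups, with 1 deposited value per group of 3 libraries and no error bars because no value per library was used. *LHCB1.3* is the tallest bar in each group, and *LHCB1.4* (orange) is the copy that is higher in both ABA groups, at 948 FPKM in *aph-1* and 1109 in WT, against 515 and 621 in the *aph-1* and WT control groups.

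The other LHCII genes were lower with ABA in each genotype, by amounts that differed between copies. *LHCB2.1* (AT2G05100) was at 162 FPKM in *aph-1* with ABA, 139 in WT with ABA, 212 in *aph-1* control and 196 in WT control. *LHCB2.2* (AT2G05070) was at 162, 141, 252 and 248 FPKM in the same groups. *LHCB2.3* (AT3G27690) was at 32.5, 28.3, 75.1 and 85.7 FPKM. The least abundant copy had the lowest ratios of the family, −1.21 in *aph-1* and −1.60 in WT, and its share of the *LHCB2* sum was 9.12% in *aph-1* with ABA and 9.15% in WT with ABA, against 13.9% in *aph-1* control and 16.2% in WT control. *LHCB3* (AT5G54270), whose product joins LHCII trimers close to the reaction centre, was at 511 FPKM in *aph-1* with ABA, 410 in WT with ABA, 1017 in *aph-1* control and 1207 in WT control. Its ratios were −0.99 in *aph-1*, just outside the threshold, and −1.56 in WT.

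The minor antenna were the part of the antenna with the lowest median. All 5 genes were at least 2-fold lower in WT and 2 were in *aph-1*, with medians of −0.94 in *aph-1* and −1.24 in WT. *LHCB5* (AT4G10340), which encodes CP26, was at 1026 FPKM in *aph-1* with ABA, 867 in WT with ABA, 1968 in *aph-1* control and 2320 in WT control. *LHCB6* (AT1G15820), for CP24, was at 491, 406, 1096 and 960 FPKM. Of the 3 genes for CP29, *LHCB4.1* (AT5G01530) was at 726, 673, 1342 and 1368 FPKM. It was the member closest to the threshold on its inner side in WT, at −1.02, and its ratio in *aph-1* was −0.89. *LHCB4.2* (AT3G08940) was at 320 FPKM in *aph-1* with ABA, 226 in WT with ABA, 587 in *aph-1* control and 504 in WT control. *LHCB4.3* (AT2G40100), the rarest of the 3, was at 19.6, 20.5, 58.3 and 53.8 FPKM in the same order, and was the one minor antenna gene whose ratio was lower in *aph-1* (−1.57) than in WT (−1.39).

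In LHCI, the 4 abundant belt proteins and the 2 rare ones behaved differently. *LHCA1* (AT3G54890) was at 809 FPKM in *aph-1* with ABA, 772 in WT with ABA, 1182 in *aph-1* control and 1219 in WT control. *LHCA2* (AT3G61470) was at 1588, 1502, 2383 and 2245 FPKM, and *LHCA3* (AT1G61520) at 991, 932, 1428 and 1719 FPKM, in the same order. *LHCA4* (AT3G47470) was at 804, 640, 1205 and 1310 FPKM. The ratios of these 4 genes lay between −0.59 and −0.53 in *aph-1* and between −1.03 and −0.58 in WT, and only *LHCA4* in WT was past the threshold. LHCA5 and LHCA6 are known as linkers between photosystem I and the chloroplast NADH dehydrogenase-like complex. *LHCA6* (AT1G19150) was at 20.7 FPKM in *aph-1* with ABA and 13.7 in WT with ABA, against 78.3 in *aph-1* control and 58.7 in WT control. This was the lowest ratio of the 59 genes in both genotypes, 3.79-fold lower with ABA in *aph-1* and 4.27-fold lower in WT. *LHCA5* (AT1G45474) was at 139, 137, 129 and 154 FPKM in *aph-1* with ABA, WT with ABA, *aph-1* control and WT control, ratios of 0.11 in *aph-1* and −0.16 in WT. The 2 linkers, *LHCA6* and *LHCA5*, thus had the lowest and one of the highest ratios of the antenna.

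**Figure D2:**
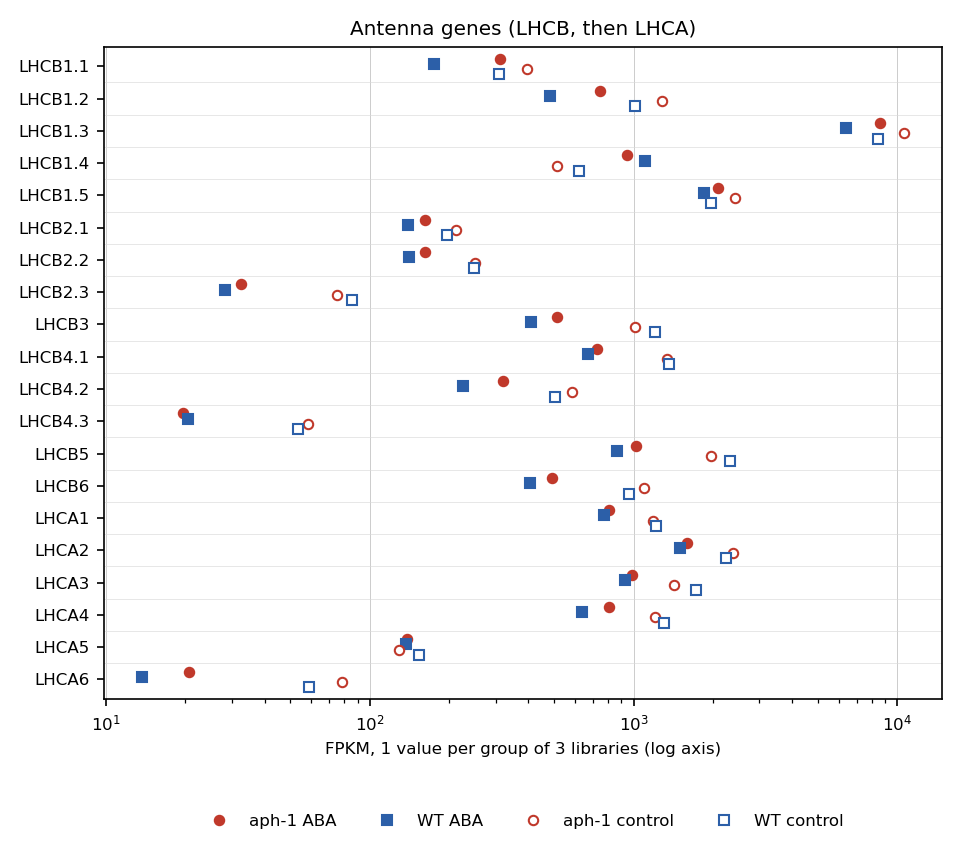
FPKM (log axis) of the 20 antenna genes in *aph-1* with ABA (filled circles), WT with ABA (filled squares), *aph-1* control (open circles) and WT control (open squares), 1 deposited value per group. Filled symbols lie left of open ones for most genes, *LHCB1.4* is the exception in both genotypes, and *LHCA6* has the widest gap, at 20.7 and 13.7 FPKM with ABA in *aph-1* and WT, against 78.3 and 58.7 FPKM in their controls.

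The 13 photosystem I subunit genes, *PSI-P* among them, were all lower with ABA at any size. Among all genes tested, 51.3% were lower at any size in *aph-1* and 50.2% in WT. At least 2-fold lower were 0 of the 13 genes in *aph-1* and 5 in WT, with medians of −0.78 in *aph-1* and −0.77 in WT. PsaD and PsaE form the docking site for ferredoxin on the stromal side. *PSAD-1* (AT4G02770) was at 829 FPKM in *aph-1* with ABA, 778 in WT with ABA, 1482 in *aph-1* control and 1758 in WT control. *PSAD-2* (AT1G03130) was at 157, 148, 282 and 345 FPKM. The 2 *PSAD* copies differed widely in level but moved together, their ratios being 0.01 apart in *aph-1* and 0.04 apart in WT. *PSAE-1* (AT4G28750), at 2137, 2097, 2407 and 2828 FPKM, and *PSAE-2* (AT2G20260), at 1134, 1063, 1196 and 1321 FPKM, had the 2 ratios closest to 0 of the photosystem I genes in each genotype. *PSAE-1* was at −0.17 in *aph-1* and −0.43 in WT, and *PSAE-2* at −0.08 and −0.31.

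PsaH, PsaL and PsaO form the side of photosystem I where LHCII docks. *PSAH2* (AT1G52230) was at 774 FPKM in *aph-1* with ABA, 650 in WT with ABA, 1518 in *aph-1* control and 1753 in WT control. Its copy *PSAH-1* (AT3G16140) was at 893, 824, 1071 and 1130 FPKM. *PSAH2* was thus the higher copy in both control groups and the lower one in both ABA groups, with ratios of −0.97 in *aph-1* and −1.43 in WT, against −0.26 and −0.46 for *PSAH-1*. *PSAL* (AT4G12800) was at 1405, 1225, 1914 and 2087 FPKM and *PSAO* (AT1G08380) at 1248, 1048, 1467 and 1685 FPKM.

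The other photosystem I genes were between these. *PSAF* (AT1G31330), whose product docks plastocyanin on the lumenal side, was at 962 FPKM in *aph-1* with ABA, 886 in WT with ABA, 1653 in *aph-1* control and 1620 in WT control. *PSAN* (AT5G64040), a second lumenal subunit, was at 820, 930, 1590 and 2059 FPKM, and it was the one photosystem I gene below WT in ABA-treated *aph-1*. PsaG and PsaK flank the LHCI belt. *PSAG* (AT1G55670) was at 1320, 1309, 1992 and 2109 FPKM and *PSAK* (AT1G30380) at 628, 603, 1146 and 1420 FPKM. *PSI-P* (AT2G46820), now known as CURT1B, a protein that curves thylakoid membranes at grana margins, was at 381, 331, 662 and 563 FPKM.

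The photosystem II subunit genes had a lower median in WT than those of photosystem I. Of the 14 that passed the filter, *PSB27*, *PSB28* and *PSB29* among them, 4 were at least 2-fold lower in *aph-1* and 7 in WT. The medians were −0.82 in *aph-1* and −1.0 in WT. PsbO, PsbP and PsbQ are extrinsic proteins that shield the oxygen-evolving centre. *PSBO2* (AT3G50820) was at 359 FPKM in *aph-1* with ABA, 307 in WT with ABA, 528 in *aph-1* control and 565 in WT control. *PSBP-1* (AT1G06680) was at 1223, 1047, 2425 and 2332 FPKM, at −0.99 in *aph-1*, just outside the threshold, and −1.15 in WT. Its relative *PSBP-2* (AT2G30790) was the lowest member in the counts, at 2.43, 1.90, 2.27 and 2.89 FPKM, and had ratios of 0.10 in *aph-1* and −0.60 in WT. At this level a difference of 1 FPKM or less sets the sign.

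The 2 *PSBQ* genes changed order with ABA in *aph-1*, as the *PSAH* genes did in both genotypes. *PSBQA* (AT4G21280) was at 617 FPKM in *aph-1* with ABA, 471 in WT with ABA, 1426 in *aph-1* control and 1311 in WT control. *PSBQ-2* (AT4G05180) was at 830, 704, 998 and 1312 FPKM. *PSBQA* was the lower copy in both ABA groups and the higher one in *aph-1* control, and in WT control the copies were level. Their ratios were −1.21 in *aph-1* and −1.48 in WT for *PSBQA*, and −0.27 and −0.90 for *PSBQ-2*.

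Small intrinsic and lumenal subunits of photosystem II included the most abundant core gene. *PSBR* (AT1G79040), which helps to hold the extrinsic proteins, was at 5875 FPKM in *aph-1* with ABA, 6082 in WT with ABA, 7555 in *aph-1* control and 9408 in WT control, and in WT control it was above *LHCB1.3*. *PSBTN* (AT3G21055) was at 1859, 1564, 3268 and 3957 FPKM, *PSBW* (AT2G30570) at 1100, 1162, 1780 and 2195 FPKM and *PSBX* (AT2G06520) at 2106, 1826, 3734 and 3324 FPKM. *PSBY* (AT1G67740) was at 492, 451, 1075 and 951 FPKM, and it was lower in both genotypes, at −1.13 in *aph-1* and −1.08 in WT. AT1G51400, described as a 5 kD photosystem II protein, was at 367, 304, 705 and 947 FPKM. It had the lowest ratio of the core genes in WT, −1.64, and was at −0.94 in *aph-1*.

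Psb27, Psb28 and Psb29 act in assembly and repair of photosystem II rather than in the finished complex. *PSB27* (AT1G03600) was at 124 FPKM in *aph-1* with ABA, 88.0 in WT with ABA, 281 in *aph-1* control and 262 in WT control. *PSB28* (AT4G28660) was at 123, 109, 307 and 268 FPKM, and *PSB29* (AT2G20890) at 352, 312, 505 and 529 FPKM. *PSB27* and *PSB28* were at least 2-fold lower in both genotypes and *PSB29* in neither.

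**Figure D3:**
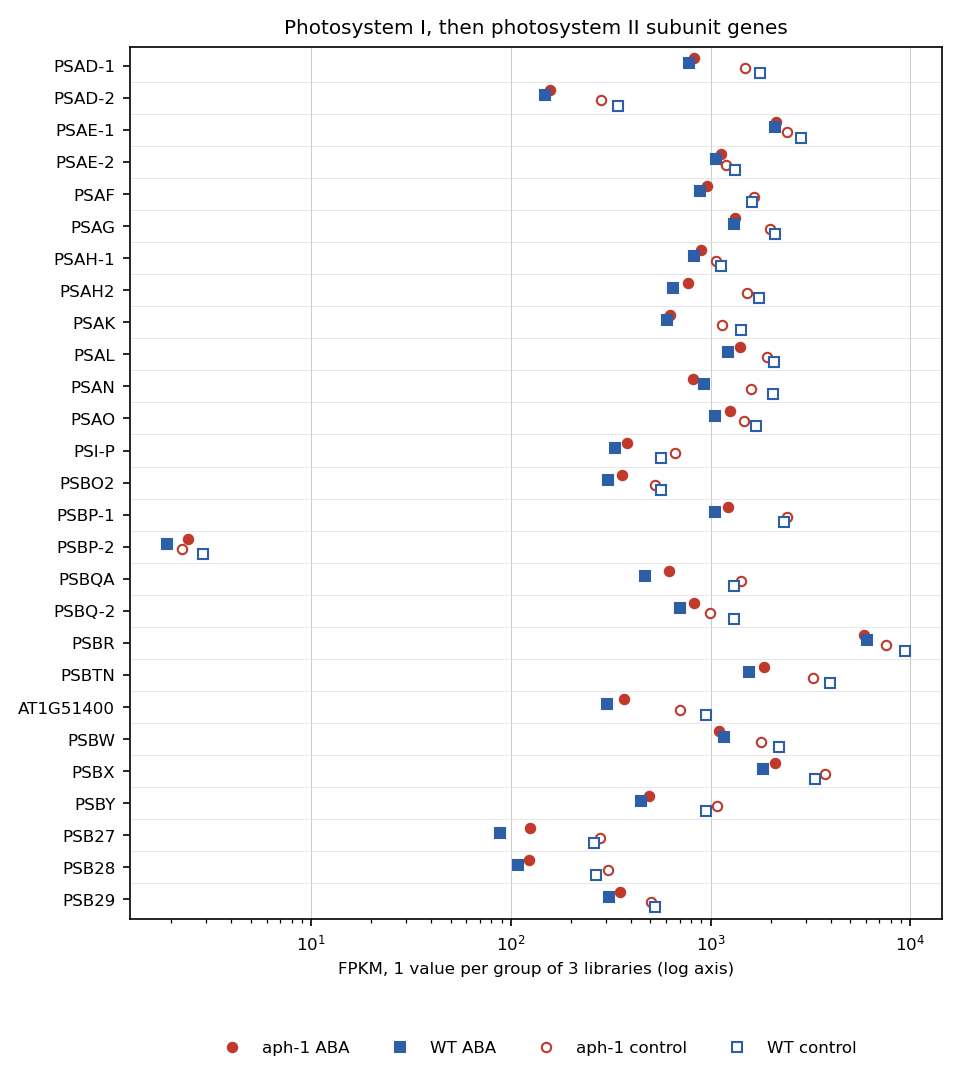
FPKM (log axis) of the 27 photosystem I and photosystem II subunit genes that passed the filter, in *aph-1* with ABA (filled circles), WT with ABA (filled squares), *aph-1* control (open circles) and WT control (open squares), 1 deposited value per group. Filled symbols lie left of open ones in every WT pair, the exception in *aph-1* is *PSBP-2* near 2 FPKM, and the *PSAH* pair shows the change in order, with *PSAH2* at 774 FPKM in *aph-1* with ABA and 1518 in *aph-1* control.

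Of the 12 remaining genes 1 was lower and 1 higher in *aph-1*, and 6 were lower and 1 higher in WT. HCF136 and LPA19 are assembly factors of photosystem II. *HCF136* (AT5G23120) was at 149 FPKM in *aph-1* with ABA, 141 in WT with ABA, 191 in *aph-1* control and 188 in WT control, and *LPA19* (AT1G05385) was at 25.3, 28.0, 50.0 and 64.2 FPKM. The assembly factor with the higher level had the ratio nearer 0. The PsbP-like genes are grouped by the table's descriptions, some of which name Mog1 beside PsbP, a wider fold family that is not limited to the photosystems. *PPD6* (AT3G56650) had the lowest ratios, at 23.0 FPKM in *aph-1* with ABA, 21.9 in WT with ABA, 57.6 in *aph-1* control and 73.4 in WT control. AT2G28605 was at 32.6, 27.6, 62.6 and 76.8 FPKM and *PPD5* (AT5G11450) at 64.7, 48.4, 119 and 115 FPKM. The single gene called higher with ABA, AT1G69680, has such a description, which does not place its product in photosystem II. It was at 20.6 FPKM in *aph-1* with ABA and 21.5 in WT with ABA, against 8.27 in *aph-1* control and 9.39 in WT control, which is 2.50-fold in *aph-1* and 2.29-fold in WT.

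The other PsbP-like genes were lower with ABA by various amounts. AT1G76450, AT3G63540, *PPD1* (AT4G15510) and AT5G27390 had ratios of −0.76, −0.69, −0.72 and −0.91 in *aph-1* and of −1.16, −1.14, −0.94 and −0.99 in WT. AT3G05410 was at −0.59 in *aph-1* and −0.70 in WT, and AT1G77090 at −0.16 and −0.36. *PPD1*, whose product helps to assemble photosystem I, had 32.3 FPKM in *aph-1* with ABA and 29.4 in WT with ABA, against 53.2 in *aph-1* control and 56.4 in WT control.

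**Figure D4:**
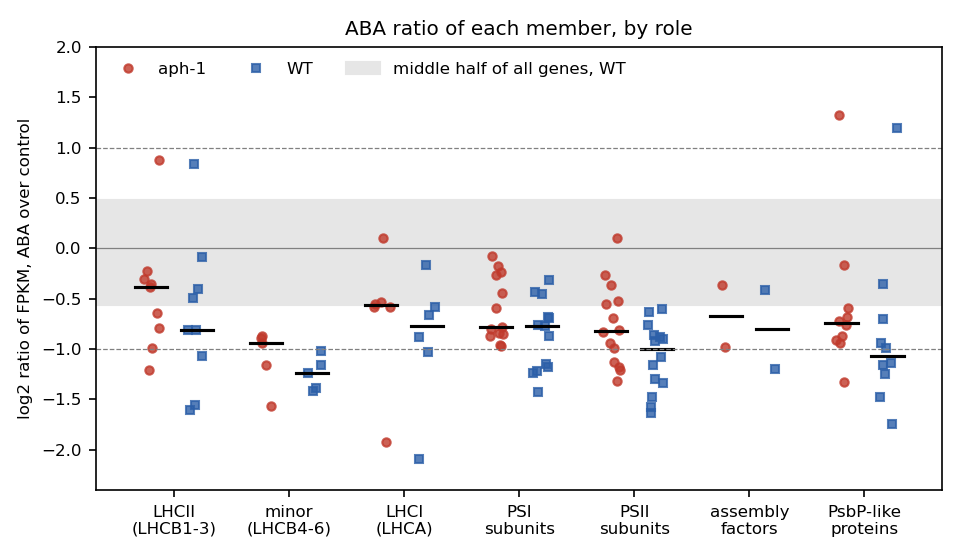
Log2 ratio of FPKM with ABA over control for each of the 59 genes that passed the filter, by role, in *aph-1* (circles) and WT (squares). Black lines are group medians, dashed lines mark 2-fold and the grey band holds the middle 50% of all genes in WT; most points lie below the band in WT, the minor antenna have medians of −0.94 in *aph-1* and −1.24 in WT, and the points above 0.5 are *LHCB1.4* and AT1G69680.

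Antenna and core genes had similar medians with ABA when each gene counts once. In *aph-1* the median was −0.61 for antenna genes and −0.80 for core genes, a difference of 0.18, and in WT it was −0.95 and −0.90, a difference of −0.05. At the 2-fold threshold 4 of 20 antenna and 4 of 27 core genes were lower in *aph-1*, and 10 of 20 and 12 of 27 in WT. Rescaled to equal nuclear totals, a scale on which all genes were not counted, 7 antenna and 8 core genes were lower in *aph-1*. With *PSB27*, *PSB28*, *PSB29*, *PSI-P* and AT4G37230 counted with the other members, 2 core genes were. The order of the medians thus differed between genotypes, and with the *LHCB1* and *LHCB2* copies summed the difference in *aph-1* was 0.06. The spread within each role was far wider than these differences. Antenna ratios ran from −1.92 to 0.88 in *aph-1* and from −2.10 to 0.84 in WT, and core ratios from −1.32 to 0.10 in *aph-1* and from −1.64 to −0.31 in WT.

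Weighted by abundance, the antenna differed less than the core. Summed antenna FPKM was 1.38-fold lower with ABA in *aph-1* and 1.54-fold lower in WT, and summed core FPKM was 1.53-fold lower in *aph-1* and 1.83-fold lower in WT. The *LHCB1* copies set this order. They made up 61.9% of the antenna sum in *aph-1* with ABA and 59.1% in WT with ABA, against 53.9% in *aph-1* control and 47.5% in WT control. Without them the antenna sum was 1.67-fold lower with ABA in *aph-1* and 1.98-fold lower in WT, which is more than the core. Minor antenna sums were 1.96-fold lower in *aph-1* and 2.37-fold lower in WT, and LHCI sums 1.47-fold and 1.68-fold lower.

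Between genotypes no member differed 2-fold. Without ABA, 0 of 59 genes were at least 2-fold lower or higher in *aph-1*, where 0.945% of 19788 genes tested were lower and 0.238% higher. At any size 23 of 59 were higher in *aph-1*, against 43.5% of all genes, and the median was −0.10 against −0.05. Antenna and core differed in sign here, with a median of 0.05 for antenna genes, 11 of 20 being higher in *aph-1*, and −0.14 for core genes, 8 of 27 being higher. The antenna median is close to 0 and its sign changes to −0.00 with the *LHCB1* and *LHCB2* copies summed. The 4 *LHCB1* genes other than *LHCB1.4* had ratios between 0.30 and 0.36, while *LHCB1.4* was at −0.27. *LHCA6* was highest at 0.42, and AT1G51400 was lowest at −0.43.

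With ABA the members were mostly above WT in *aph-1* by small amounts. None was 2-fold lower or higher, against 0.319% and 0.489% of 19408 genes, and 52 of 59 were higher at any size, against 47.0% of all genes. These were 18 of 20 antenna, 24 of 27 core and 10 of 12 other genes, and the median was 0.19 against −0.01 over all genes. At a 1.5-fold threshold, which 1.39% of all genes passed upward, 3 members were higher in *aph-1*, all of them antenna genes. They were *LHCB1.1*, with a log2 ratio of 0.83, *LHCB1.2* with 0.63 and *LHCA6* with 0.59. *LHCB1.1* and *LHCB1.2* are among the near-identical copies on chromosome 1, so their single values are uncertain. Summed over its copies, *LHCB1* had a log2 ratio of 0.34. The 7 genes below WT were *LHCB1.4*, *LHCB4.3*, *PSAN*, *PSBR*, *PSBW*, *LPA19* and AT1G69680, with ratios between −0.23 and −0.05. They include both genes with the highest ABA ratios. The shoot genes *RBCS1A* and *RCA* had ratios of 0.61 and 0.28 in the same comparison. What part a change in shoot tissue has in these ratios was not tested.

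The difference of the log2 ABA ratio, *aph-1* minus WT, was above 0 in 53 of 59 members, against 55.0% of 20136 genes tested, with a median of 0.24 against 0.04 over all genes. A value above 0 means a smaller decrease, or a larger increase, in *aph-1*. Part of this distance from all genes goes with abundance. Of the 1971 other nuclear genes with at least 100 FPKM on average, 79.5% were above 0 with a median of 0.19, and of the 46 members at that level 89.1% were, with a median of 0.26. In ABA-treated seedlings alone, 91.3% of those 46 members and 59.5% of the 1971 other genes were higher in *aph-1*, with medians of 0.19 and 0.04. Between 10 and 100 FPKM the difference of the ABA ratio was above 0 in 91.7% of 12 members, with a median of 0.20. Of 10019 other nuclear genes in that range 57.0% were above 0, with a median of 0.04. Rescaling to equal nuclear totals lowered the members' median difference to 0.16. It shifts the ABA ratio of every gene by −0.12 in *aph-1* and −0.03 in WT, so the distance of the members from other genes stayed the same. By role the median was 0.17 for antenna, 0.27 for core and 0.22 for other genes.

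The largest differences were *PSBP-2* at 0.70, on its low level, AT1G51400 at 0.70, *PSBQ-2* at 0.63, *LHCB3* at 0.56 and AT2G28605 at 0.54. AT1G51400 was below WT in *aph-1* control and above it in *aph-1* with ABA, by log2 ratios of −0.43 and 0.27. Negative differences were found for 6 genes, of which *LHCB4.3* at −0.18 and *LHCB1.5* at −0.13 were the lowest. The 4 others, *PSBY*, *PSI-P*, *PSB28* and *LHCA2*, lay between −0.05 and −0.00.

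The 2 ABA comparisons share no group, so the order of genes in them can be set side by side. Over the 59 members the log2 ratios in *aph-1* and WT were related with Pearson's r = 0.93 and Spearman's rho = 0.91. This is a description across genes, which are not independent replicates. The same values were not computed over all genes, so the relation is not shown to be particular to the members. The signs were opposite for *LHCA5* and *PSBP-2* only, and both ratios in *aph-1* become −0.01 and −0.02 after rescaling to equal nuclear totals.

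**Figure D5:**
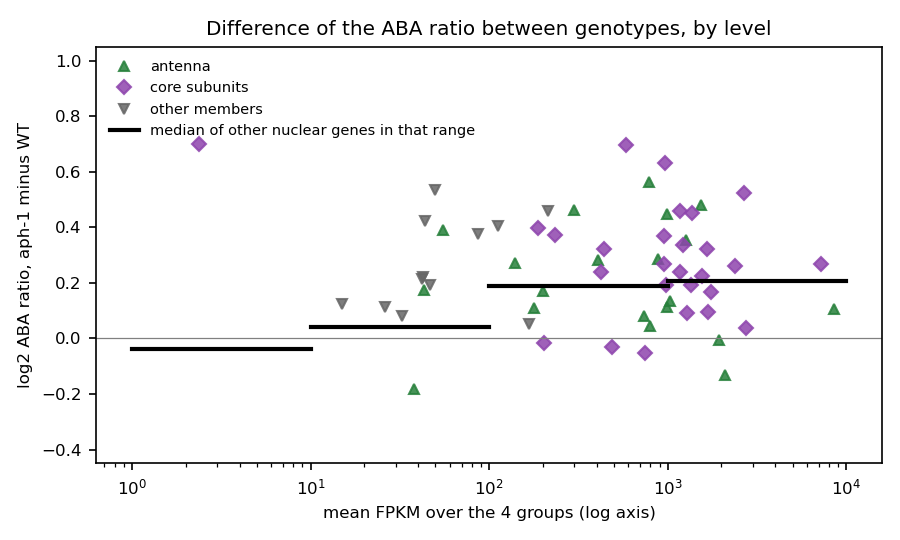
Difference of the log2 ABA ratio, *aph-1* minus WT, against mean FPKM over the 4 groups (log axis), for antenna (triangles), core (diamonds) and other members (inverted triangles). Black lines are the medians of all other nuclear genes between 1 and 10, 10 and 100, 100 and 1000 and above 1000 FPKM, at −0.04, 0.04, 0.19 and 0.21. The members had medians of 0.20 (12 genes) between 10 and 100 FPKM, 0.28 (26 genes) between 100 and 1000 FPKM and 0.23 (20 genes) above. The 1 member below 10 FPKM was at 0.70.

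Most nuclear genes of the electron transport chain around the photosystems were also lower with ABA. Of 18 such genes 6 were lower and 0 higher in *aph-1* and 7 lower and 0 higher in WT, with medians of −0.79 and −0.87, and 0 differed 2-fold between genotypes. *PETE2* (AT1G20340), the major plastocyanin gene, was at 1274 FPKM in *aph-1* with ABA and 1059 in WT with ABA, against 3671 in *aph-1* control and 4169 in WT control. *PGRL1B* (AT4G11960) and *STN7* (AT1G68830), for a factor of cyclic electron flow and the kinase of state transitions, were the 2 with positive ratios, 0.54 and 0.18 in *aph-1* and 0.55 and 0.36 in WT.

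Of 8 regulators and stress relatives of the antenna, 1 was lower and 2 higher in *aph-1*, and 2 lower and 2 higher in WT. *GLK1* (AT2G20570), a transcription factor that activates antenna genes, was at 30.3 FPKM in *aph-1* with ABA and 33.7 in WT with ABA, against 75.9 in *aph-1* control and 83.9 in WT control. Its relative *GLK2* (AT5G44190) had ratios of −0.46 in *aph-1* and −0.36 in WT, and *HY5* (AT5G11260), a regulator of light responses, 0.08 and −0.05. The early light-induced proteins are relatives of the antenna that accumulate under stress. *ELIP1* (AT3G22840) was at 241 FPKM in *aph-1* with ABA and 221 in WT with ABA, against 21.3 in *aph-1* control and 27.8 in WT control, the opposite direction to most of the antenna. *ELIP2* (AT4G14690) was at 31.1 and 28.7 FPKM with ABA, against 9.54 and 7.50 FPKM in control, in *aph-1* and WT.

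The chloroplast-encoded partners were at low levels in the table. Of the 18 chloroplast genes that meet the same wording, 8 are listed at 0 in all groups and the highest value was 40.5 FPKM. Over the 9 that were above 0 in each group, 8 were higher with ABA in *aph-1* and 8 in WT, with median log2 ratios of 0.25 and 0.52, the opposite direction to most nuclear members. At the 2-fold threshold 1 was higher in *aph-1* and 0 in WT. The remaining gene, ATCG00070, was at 22.2 FPKM in *aph-1* with ABA and 12.2 FPKM in WT control and listed at 0 in the other groups. The chloroplast and mitochondrial genes together made up between 0.049% and 0.064% of summed FPKM, and how far the library preparation keeps their RNA was not tested.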

How the data were processed

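RNA sequencing of whole seedlings was used, with 12 libraries in 4 groups of 3. By the study's methods, libraries were made with a directional kit, and the authors used Trimmomatic 0.36 for trimming, HISAT for mapping to TAIR10, htseq-count for counting and edgeR for calls. The table the authors deposited holds 1 FPKM value per gene and group. The unit was inferred from a label naming Cuffdiff, which the methods do not mention, from the total of each column and from the spacing of small values. For the combining of libraries, the procedure was not given in the sources used here. Depth per sample, and so precision, is unknown. The table also holds the authors' log2 ratios and yes or no calls, which were not used.

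Ratios were computed as log2 of FPKM over FPKM with no pseudocount, for genes that reach 1 FPKM in either group compared, with a 2-fold threshold. A comparison is ABA over control or *aph-1* over WT. Alternatives were 1.5-fold and 3-fold thresholds, 0.1 and 1 FPKM added, a minimum of 10 FPKM, no minimum, rescaling to equal nuclear totals, centring on the median of all genes, summed *LHCB1* and *LHCB2* copies and antenna and core members only. Counting assembly-related genes with the other members was added after the data were seen. Every antenna and subunit gene is named, and of the others the largest rises and falls, which here covers each of them. The members and lists were chosen with earlier results of these data known. Counting was checked on a copy of the WT control values, in which 100 genes were lowered and 100 raised exactly 3-fold with no noise added. The 2-fold threshold found 100 of 100 lowered and 100 of 100 raised genes among 19588. This setting fixes that outcome, so it checks the arithmetic and says nothing on sensitivity or false calls. Gene names were matched to a RefSeq table of assembly TAIR10.1, which held all 60 members. No sequences were given, so promoters were not searched. Python 3.11.15, numpy 2.4.6, pandas 2.3.3 and matplotlib 3.10.9 were used.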

Additional observations from a re-analysis of the deposited data

Results flagged for a closer look

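*LHCA5* and *PSBP-2* are the 2 members whose ratio of ABA to control had opposite signs in the 2 genotypes. The difference of the log2 ratio, *aph-1* minus WT, was 0.27 for *LHCA5* and 0.70 for *PSBP-2*. These differences were not tested, since each group has 1 value, and *PSBP-2* was at or below 2.89 FPKM in every group. After rescaling to equal nuclear totals the ratios in *aph-1* were −0.01 for *LHCA5* and −0.02 for *PSBP-2*, so neither gene kept opposite signs.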

How the results depend on the processing

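No paired analysis was possible because each group has 1 value for its 3 libraries, and for the same reason no library could be left out. No direction of a count or median by role reported as above or below 0 with ABA turned under the alternatives that were run. At a 1.5-fold threshold 37 of 59 members were lower and 2 higher with ABA in *aph-1*, against 4348 lower and 4056 higher of 20054 genes tested. In WT 47 of 59 members were lower and 2 higher, against 4892 and 4324 of 20094 genes. With ABA, 3 members were higher in *aph-1* than in WT, against 270 of 19408 genes. Of the members lower with ABA, 11 were antenna and 17 core genes in *aph-1*, and 24 were core genes in WT. At a 3-fold threshold 1 member was lower and 0 higher in *aph-1*, and 4 were lower and 0 higher in WT. The lower ones were 1 antenna and 0 core genes in *aph-1* and included 2 antenna and 1 core gene in WT. All genes were not counted at 3-fold. With antenna and core members only, 0 were higher in either genotype. Rescaling to equal nuclear totals gave 19 lower members in *aph-1*, 7 of them antenna and 8 core genes, an antenna median of −0.73 and a core median of −0.91. All genes were not counted on that scale. With the *LHCB1* and *LHCB2* copies summed, the antenna median in *aph-1* was −0.73 and the antenna minus core difference 0.061, and the antenna median of *aph-1* over WT without ABA was −0.00 in place of 0.05. The cause of these changes was not tested, except that a lower threshold admits more genes. Added FPKM, the minimum of 10 FPKM, no minimum and centring changed no count by over 1.5 times and no median by over 0.1. Counting assembly-related genes with the others left 2 lower core genes in *aph-1* in place of 4, and it moved no median by over 0.1. The unknown depth limits the least abundant genes, such as *PSBP-2*, most.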
